A study of Mus musculus with 6 samples.

Results

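Expression of 5 genes of the enteroendocrine lineage was examined in laser-captured epithelium of the base of mouse ileal crypts. They were Chga, which encodes the granule protein chromogranin A, and Tac1, Cck, Ghrl and Sst, which encode secreted peptides. The genes were taken by symbol from a deposited table that names 744 genes with 1 symbol each. That table holds 1053 of the 28853 probe sets of the array and was itself selected on the difference between genotypes, so the differences of these 5 genes are a description and are given without support from a test. The groups were wild type (WT, 3 arrays) and Nod2-/- (3 arrays) mice of C57BL/6J background, all aged 8 weeks. Nod2-/- mice lack Nod2, which senses muramyl dipeptide from bacteria inside the cell. Ileal tissue was fixed in methacarn, embedded in paraffin and cut by laser microdissection at the crypt base to enrich for Paneth cells, and 100 ng of total RNA was labelled for each array. The labels do not say how many mice gave each capture, so the spread between arrays may be partly technical, and the number of arrays limits the precision.

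Enteroendocrine cells are hormone-secreting cells scattered singly through the gut epithelium. They arise from the crypt stem cells and store peptides in dense granules, where chromogranin A is packed with the hormone. Different enteroendocrine cells make different peptides. Cholecystokinin, from Cck, stimulates the gall bladder and the exocrine pancreas, and ghrelin, from Ghrl, stimulates appetite. Somatostatin, from Sst, inhibits the release of many other hormones, and Tac1 encodes substance P, which enterochromaffin cells and enteric neurons both make.

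The arrays were alike as a whole, with a median intensity of 34.5 to 35.4 and a correlation of 0.971 to 0.987 between any pair over all probe sets. Nod2 is not among the named genes, so its signal was not analysed here and gives no check of the genotypes. The captures are labelled as Paneth cells. Of 13 Paneth cell markers, Mptx1, Reg3b and Reg3g were in the named part of the array, at their lowest in WT replicate 1. Lyz1, Mmp7 and the other 8 were not analysed here. The named part was selected on the difference between genotypes, so these genes give no check of the Paneth cell content. The column names of the named table carry a number in the form of a date, which replicate 1 of WT shares with replicate 1 of Nod2-/-, while the 4 arrays of replicates 2 and 3 share a different one. The headers do not explain it. It is called the date here.

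Chga was the steadiest of the 5 genes and the only one of them whose arrays did not overlap between genotypes. Its probe set (10397882) covers chromosome 12, 103793179 to 103803237, on the plus strand of mm9, the build of all probe set positions given here. WT replicates 1, 2 and 3 had log2 intensities of 7.40, 7.0 and 7.26, and Nod2-/- replicates 1, 2 and 3 had 7.80, 7.47 and 7.67. Every Nod2-/- array was above every WT array. The means were 7.65 ± 0.17 (SD, n = 3) in Nod2-/- and 7.22 ± 0.20 in WT, a log2 difference of 0.43 (standard error 0.13), or 1.35-fold. The difference was nearly the same on both dates, at 0.40 for replicate 1 and 0.44 for replicates 2 and 3. With any 1 array left out it lay between 0.32 and 0.52. Non-overlapping arrays with Nod2-/- higher were found for 3.42% of all probe sets, and since Chga was chosen from a table selected on this contrast, nothing is read from its own case. Chga lay close to the inclusion threshold of that table, a log2 difference of 0.41, and the probe sets just outside it carry no names here. In bulk captures of this kind, fewer cells of a type and less RNA per cell cannot be told apart.

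On means of log2 values, Tac1 had the greatest difference in favour of Nod2-/- among the 5 genes. Its probe set (10536363) covers chromosome 6, 7505071 to 7512973, on the plus strand. The WT values were 5.49, 7.06 and 5.84 in replicates 1, 2 and 3, and the Nod2-/- values were 7.92, 7.01 and 7.32. WT replicate 2 lay above Nod2-/- replicate 2, so the groups overlapped, while WT replicates 1 and 3 were more than a log2 unit below every Nod2-/- array. The means were 7.42 ± 0.46 and 6.13 ± 0.83 (SD, n = 3 each), a log2 difference of 1.29 (standard error 0.46), or 2.45-fold. The difference was 2.43 between the replicate 1 arrays and 0.72 between the arrays of replicates 2 and 3. It was 1.76 without WT replicate 2 and 0.97 without WT replicate 1. Taken as the ratio of mean linear intensities, the log2 difference of Tac1 was 1.17, below that of Ghrl (1.36).

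Cck followed the same arrays over a narrower range. Its probe set (10597817) covers chromosome 9, 121398942 to 121404780, on the minus strand. WT replicates 1, 2 and 3 measured 4.80, 6.04 and 5.63, against 6.28, 5.86 and 6.26 in Nod2-/-. WT replicate 1 was the lowest by 0.83 log2 units, and WT replicate 2 again lay above Nod2-/- replicate 2. The means were 6.13 ± 0.24 and 5.49 ± 0.63 (SD, n = 3 each), a log2 difference of 0.64 (standard error 0.33), or 1.56-fold. Without WT replicate 1 the difference was 0.30, and without WT replicate 2 it was 0.92. The date of replicate 1 gave 1.48 and that of replicates 2 and 3 gave 0.23. The WT replicate 1 value was under the array medians (5.11 to 5.15). Background was not measured separately here, so the distance of this array from the others may be understated.

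The Ghrl values followed a single Nod2-/- capture. Its probe set (10546962) covers chromosome 6, 113666113 to 113669874, on the minus strand, the same chromosome as Tac1. The WT values were 7.20, 7.25 and 6.15, and the Nod2-/- values were 9.64, 6.16 and 6.34. Nod2-/- replicate 1 was 2.38 log2 units above the next array, whereas Nod2-/- replicates 2 and 3 lay within the range of WT. The means were 7.38 ± 1.96 and 6.87 ± 0.62 (SD, n = 3 each), a log2 difference of 0.51 (standard error 0.99), or 1.43-fold. Without Nod2-/- replicate 1 the sign turned, to -0.62, and on the date of replicates 2 and 3 the difference was -0.45, against 2.44 on the date of replicate 1. Taken as the ratio of mean linear intensities, in which one bright array weighs more, the log2 difference was 1.36.

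Sst was the one gene of the 5 that averaged lower in Nod2-/-, and it was divided within WT. Its probe set (10438730) covers chromosome 16, 23889665 to 23890930, on the minus strand. WT replicates 1, 2 and 3 had log2 intensities of 5.79, 9.05 and 8.89, and Nod2-/- replicates had 7.65, 7.19 and 6.36. WT replicates 2 and 3 were the highest arrays, WT replicate 1 was the lowest, and all 3 Nod2-/- arrays lay between. In linear intensity this was 531 and 473 against 55.5 within the same genotype, and 201, 146 and 82.2 in Nod2-/-. The means were 7.07 ± 0.65 and 7.91 ± 1.84 (SD, n = 3 each), a log2 difference of -0.84 (standard error 0.94), or 1.79-fold lower in Nod2-/-. Without WT replicate 1 the difference was -1.90, and without WT replicate 2 it was -0.27. On the date of replicates 2 and 3 both Nod2-/- arrays were below both WT arrays (-2.19), and on the date of replicate 1 the Nod2-/- array was above the WT array (1.86).

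**Figure D1:**
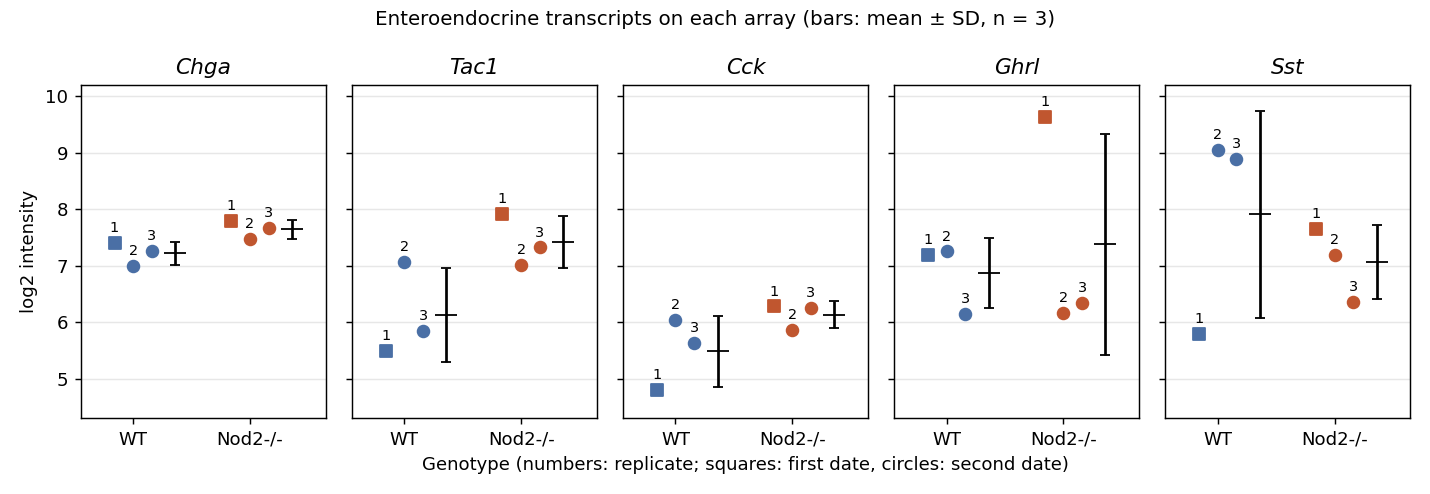
Log2 intensity (vertical axis) of Chga, Tac1, Cck, Ghrl and Sst on each array, by genotype (horizontal axis), with numbers for the replicate, squares for replicate 1 (one date) and circles for replicates 2 and 3. Bars are mean ± SD of 3 arrays. Chga is tight in both genotypes, Ghrl has 1 high array (9.64, Nod2-/- replicate 1), and the WT arrays of Sst lie at 9.05, 8.89 and 5.79.

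None of the 5 genes passed the test across the array. With limma and Benjamini-Hochberg adjustment over 28853 probe sets, 0 probe sets (0% of those tested) had an adjusted p under 0.05, and 1106 (3.83%) had an unadjusted p under 0.05. The adjusted p of each of the 5 genes was 1.00. The median log2 difference was 0.51 over the 5 genes, 0.44 over the named table and -0.01 over all probe sets, and the first of these values follows from how the genes were chosen. Of the 5 genes 4 were higher and 1 was lower in Nod2-/-, against 653 higher and 400 lower in the table. Over the whole array, 2.11% of probe sets were higher in Nod2-/- by at least 0.41 on the log2 scale and 1.23% were lower by as much. That difference was a criterion on which the table was selected, beside a lower fold with a p-value threshold. Nothing is therefore read from the count of 5.

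**Figure D2:**
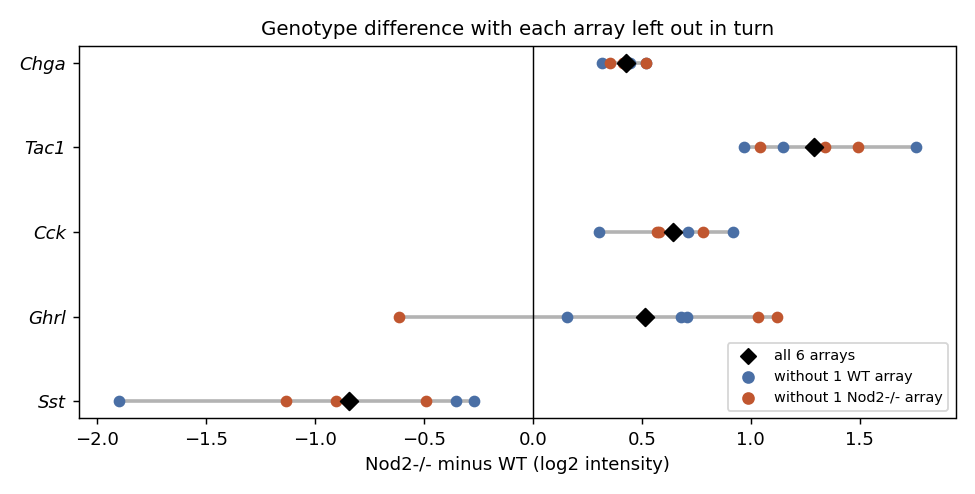
Difference between genotypes (Nod2-/- minus WT, log2 intensity, horizontal axis) for each gene (vertical axis), with all 6 arrays (diamonds) and with each array left out in turn (points, coloured by the genotype of the array left out). Chga stays between 0.32 and 0.52, while Ghrl ranges from -0.62 to 1.12 and Sst from -1.90 to -0.27.

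The spread between captures of one genotype differed widely among the 5. The genes were chosen with their values on these arrays known, so the spread is described here without a test. The SD within genotype was 0.19 (log2) for Chga, 0.48 for Cck, 0.67 for Tac1, 1.38 for Sst and 1.45 for Ghrl, against a median of 0.12 over all probe sets. Only 12 of the 28853 probe sets (0.0416%) had a higher SD than Ghrl, and 19 (0.0659%) had a higher SD than Sst. Among the 1000 probe sets closest to each in mean intensity, 0 exceeded Ghrl and 1 exceeded Sst. The corresponding counts were 33 for Tac1, 61 for Cck and 714 for Chga, so the granule protein varied less than most probe sets of its intensity. A table selected on the difference between genotypes also holds probe sets of high spread, and its median SD was 0.37. Within its 1053 probe sets, 6 exceeded Ghrl, 9 exceeded Sst, 162 exceeded Tac1, 370 exceeded Cck and 883 exceeded Chga. The SD of Ghrl was 0.51 without Nod2-/- replicate 1, that of Sst was 0.54 without WT replicate 1, that of Cck was 0.26 without WT replicate 1, and that of Tac1 was 0.40 without WT replicate 2. From the lowest to the highest array, Ghrl spanned 11.2-fold, Sst 9.57-fold, Tac1 5.40-fold, Cck 2.79-fold and Chga 1.74-fold.

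**Figure D3:**
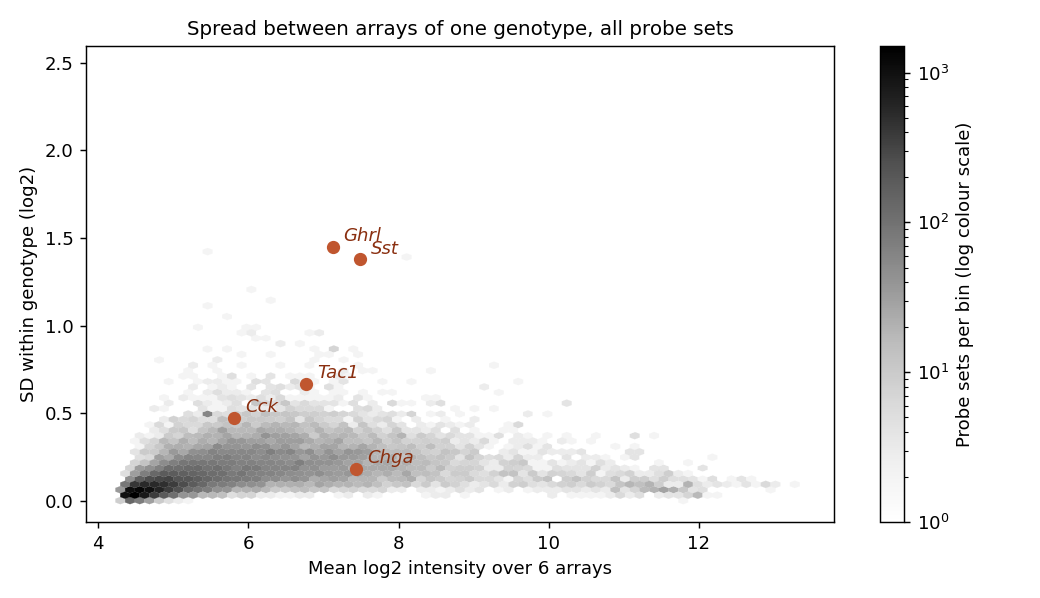
SD of log2 intensity within genotype (vertical axis, 4 residual degrees of freedom) against mean log2 intensity over 6 arrays (horizontal axis) for 28853 probe sets, with grey showing the number of probe sets per bin on a log scale and orange points marking the 5 genes. Ghrl (1.45) and Sst (1.38) stand above nearly all probe sets of like intensity, and Chga (0.19) lies within the bulk.

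Tac1 and Cck varied together across the captures. Both genes put the 6 arrays in the same order, with WT replicate 1 lowest, then WT replicate 3, Nod2-/- replicate 2, WT replicate 2, Nod2-/- replicate 3 and Nod2-/- replicate 1. Over 6 arrays Spearman's rho was 1.00 and Pearson's r was 0.91. Some steps in the shared order are near ties. Cck was 6.28 and 6.26 in Nod2-/- replicates 1 and 3, and Tac1 was 7.06 in WT replicate 2 and 7.01 in Nod2-/- replicate 2. The genes were chosen on these same arrays, so the correlations between them are descriptions, without a test. Without the 2 arrays farthest from the median of Tac1, WT replicates 1 and 3, r was 0.79, and without the 2 farthest from the median of Cck, WT replicate 1 and Nod2-/- replicate 1, it was 0.89. Leaving out 1 array at a time gave 0.91 to 0.97. Both genes were chosen with a higher mean in Nod2-/- known, which by itself raises this correlation. After the mean of each genotype was subtracted, r was 0.85, and 0.68 to 0.95 with 1 array left out (0.68 without WT replicate 2). For comparison, Cck ranked 133rd among the 28852 other probe sets in correlation with Tac1, and Tac1 ranked 185th in correlation with Cck. Each date holds fewer than 6 arrays, so no correlation is given within dates.

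Of the 10 pairs, the other 9 had a Pearson r between -0.58 (Chga and Sst) and 0.50 (Tac1 and Ghrl). For Chga and Sst r was -0.54 after the genotype means were subtracted, and 0.09 when WT replicate 1 was also left out. On the same scale of deviations, Sst had an r of 0.83 with Cck and 0.67 with Tac1, compared with 0.37 and 0.13 before it. WT replicate 1 was the lowest array for all 3 genes. Without it the r of deviations was -0.01 for Cck and Sst and 0.41 for Tac1 and Sst, and the r of log2 values was -0.55 and -0.52, so the relation of Sst to Cck rests on that array. Ghrl was correlated with Tac1 at 0.50, and at -0.21 without Nod2-/- replicate 1.

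**Figure D4:**
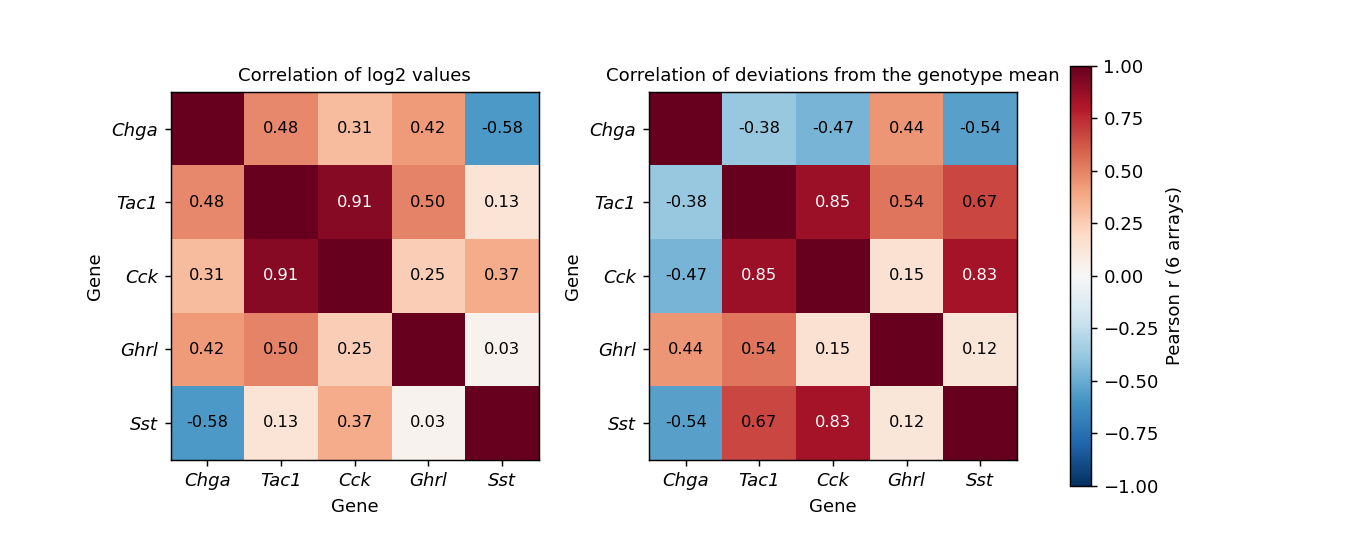
Pearson correlation between each pair of genes over 6 arrays (colour scale from -1 to 1), from log2 values (left) and from deviations from the genotype mean (right). Tac1 and Cck are at 0.91 and 0.85, and the pairs of Sst with Cck and Tac1 differ between the panels.

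**Figure D5:**
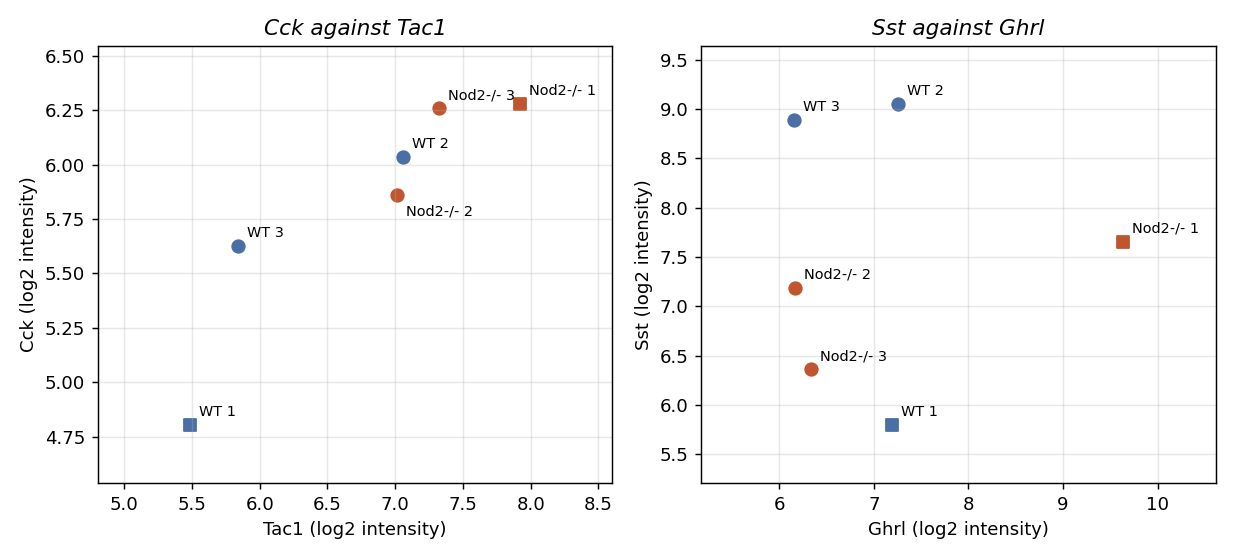
Log2 intensities of Cck against Tac1 (left) and of Sst against Ghrl (right), 1 point per array, blue for WT and orange for Nod2-/-, squares for the date of replicate 1. The Cck and Tac1 points rise in one order (rho = 1.00), while Nod2-/- replicate 1 stands apart in Ghrl and WT replicates 2 and 3 stand apart in Sst.

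The promoters of the genes are shown because Tac1 and Cck varied in parallel and because Chga, Tac1, Cck and Sst hold forms of the cAMP response element, a site bound by CREB and related factors. The windows are from RefSeq (GRCm38.p6) and run from 250 bases before to 50 bases after the start of each gene, written 5′ to 3′ on the strand of the gene. Capitals mark matches, on either strand, to the full element TGACGTCA, the variant TGCGTCA, the core TGACG and the E box CACGTG. The core overlaps the full element and the variant. These motifs were picked after the sequences had been read.
Tac1 (chr6:7554811-7555110, plus strand): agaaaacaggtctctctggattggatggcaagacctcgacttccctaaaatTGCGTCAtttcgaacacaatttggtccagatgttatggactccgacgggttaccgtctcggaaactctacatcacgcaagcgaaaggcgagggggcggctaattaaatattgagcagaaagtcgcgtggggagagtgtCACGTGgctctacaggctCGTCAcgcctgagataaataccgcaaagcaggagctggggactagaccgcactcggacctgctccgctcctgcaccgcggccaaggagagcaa
Cck (chr9:121495645-121495944, minus strand): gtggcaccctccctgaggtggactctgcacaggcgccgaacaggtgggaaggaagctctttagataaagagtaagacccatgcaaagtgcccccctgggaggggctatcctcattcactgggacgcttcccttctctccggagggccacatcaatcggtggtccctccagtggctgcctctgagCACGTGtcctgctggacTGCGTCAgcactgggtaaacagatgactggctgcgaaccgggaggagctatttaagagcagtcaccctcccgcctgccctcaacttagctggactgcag
Sst (chr16:23890795-23891094, minus strand): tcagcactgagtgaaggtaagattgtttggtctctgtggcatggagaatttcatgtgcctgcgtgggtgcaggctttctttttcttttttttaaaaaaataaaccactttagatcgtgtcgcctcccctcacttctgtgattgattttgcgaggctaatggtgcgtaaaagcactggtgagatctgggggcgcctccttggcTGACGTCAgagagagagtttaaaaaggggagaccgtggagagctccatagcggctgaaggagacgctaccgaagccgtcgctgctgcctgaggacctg
Chga (chr12:102554691-102554990, plus strand): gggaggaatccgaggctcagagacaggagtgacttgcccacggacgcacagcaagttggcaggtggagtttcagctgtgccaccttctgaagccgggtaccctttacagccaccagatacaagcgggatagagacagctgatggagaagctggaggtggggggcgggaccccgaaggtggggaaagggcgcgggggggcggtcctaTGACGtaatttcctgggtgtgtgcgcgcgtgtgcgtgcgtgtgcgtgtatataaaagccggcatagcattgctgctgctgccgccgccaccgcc

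Both Tac1 and Cck hold the variant TGCGTCA and the E box CACGTG. In Tac1 the variant begins 199 bases and the E box 61 bases before the start, and in Cck they begin 49 and 66 bases before it. Of 32851 windows of this length, 2.12% hold the variant, 7.15% hold the E box and 0.234% hold both. Sst has the full element 48 bases before its start, and 1.79% of windows hold this element at any position. Chga has the core 44 bases before its start, and 20.8% of windows hold the core at any position. Tac1 has a core apart from its variant 43 bases before its start. Ghrl has 4 annotated starts, and none of their windows matched any of these motifs. Since the motifs were picked after the sequences had been read, the shares of all windows do not measure how unusual the matches are. These matches describe the sequence and say nothing of which factors were bound in these captures.

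Genes whose pattern over the 6 arrays was most like each of the 5 were taken from the 850 other probe sets with 1 symbol, and this measure describes the arrays only. For Tac1 they were Kyat3 (r = 0.98), an aminotransferase, Nfil3 (r = 0.98), a transcription factor with a basic leucine zipper, and Rtf2 (r = 0.97). For Cck they were Lrrc1, Zfp280c (both r = 0.98) and Prom1 (r = 0.97), a membrane protein used as a crypt stem cell marker, whose WT replicate 1 value of 7.32 was its lowest. Prom1 was the only one of the 6 named stem cell genes that averaged higher in Nod2-/- and the only one lowest in WT replicate 1, the array in which the mean of the 6 was highest. Chga was followed by St3gal3 (r = 0.98), a sialyltransferase, Adamts17 (r = 0.96), a secreted metalloprotease, and Avil (r = 0.94), an actin-binding protein of tuft cells. Ypel1, Prss23 and Adamts3 were most like Ghrl (r = 0.94 to 0.95), and in each of them Nod2-/- replicate 1 was the highest array. For Adamts3 that array measured 6.57, and the other 5 lay between 4.72 and 4.89. Scnm1 (r = 0.95), Cetn2 (r = 0.89), a centriole protein, and Ltn1 (r = 0.87), a ubiquitin ligase of stalled ribosomes, were most like Sst, with WT replicates 2 and 3 as their highest arrays.

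Little of the rest of the enteroendocrine programme had a name in the table. Of 75 genes in 4 lists (hormones, granule and processing proteins, transcription factors, and receptors of the hormones), 8 were in it, 5 higher and 3 lower in Nod2-/-, and 0 passed limma's adjusted threshold. The table holds 3.65% of all probe sets, 653 higher and 400 lower in Nod2-/-. The 8 include the 5 genes chosen from that table, so nothing is read from these counts about the lineage. The other 67 of the 75, among them Neurog3, Neurod1, Chgb, Tph1, Pyy and Gcg, were either below the thresholds of the table or not measured under their symbol. By list, 5 of 17 hormones were in it (median log2 difference 0.51), 2 of 24 granule and processing proteins, 1 of 23 transcription factors, and 0 of 11 receptors.

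Outside the 5 genes, the named members were Iapp, Ptprn2 and Etv1. Iapp, which encodes the islet peptide amylin, had its highest value in 1 capture, WT replicate 2. It measured 4.75, 5.94 and 4.99 in WT and 4.65, 4.73 and 4.90 in Nod2-/-. Its log2 difference was -0.47 (standard error 0.31), and -0.11 without WT replicate 2. Ptprn2, a phosphatase-like protein of dense granule membranes, measured 7.63, 7.20 and 7.40 in WT and 7.02, 6.95 and 6.99 in Nod2-/-, without overlap (difference -0.42, standard error 0.12). Chga and Ptprn2, both granule proteins, thus differed in sign. Etv1, a transcription factor, measured 4.65, 4.88 and 4.81 in WT and 5.03, 5.32 and 5.31 in Nod2-/- (difference 0.44, standard error 0.11). Its values in WT and in Nod2-/- replicate 1 were under the array medians (5.11 to 5.15). Non-overlapping arrays with Nod2-/- lower were found for 4.64% of all probe sets, and for 8.07% in either direction.

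Markers of other cells differed between the same captures. A gene has a name here only through a selection on the difference between genotypes. The ranges of the genotypes below are therefore set apart in part by that selection, and nothing is read from them about cell content. WT replicate 1, the lowest array for Tac1, Cck and Sst, was also the lowest for all 7 of 12 fibroblast and matrix genes that had names, whose summed intensity was 1088 to 1907 in WT and 2136 to 2990 in Nod2-/-. The same array was the lowest for all 3 named Paneth cell genes, Mptx1, Reg3b and Reg3g, which summed to 993 there, to between 3973 and 6006 in the other WT arrays and to between 6988 and 7221 in Nod2-/-. It had the highest mean log2 value of the named enterocyte genes (5 of 14, summed intensity 1053 to 1708 in WT and 721 to 1065 in Nod2-/-) and of the named stem cell genes (6 of 14, 1151 to 1654 and 799 to 1373). Of the enterocyte genes 1 averaged higher in Nod2-/- and 4 lower, and of the stem cell genes 1 averaged higher and 5 lower. Nod2-/- replicate 1, the array with high Ghrl, had the highest mean log2 value of the named tuft, goblet and Paneth cell genes. Tuft cell genes (9 of 20) summed to 378 to 406 in WT and 464 to 948 in Nod2-/-. Goblet cell genes (6 of 12) summed to 2276 to 4385 and 4006 to 5516. All named tuft and Paneth cell genes (3 of 13) averaged higher in Nod2-/-, while 4 goblet cell genes averaged higher and 2 lower. The sum of the Paneth cell genes was highest in Nod2-/- replicate 2 (7221). Named leukocyte genes (3 of 13) summed to 231 to 1258 in WT and 670 to 1489 in Nod2-/-. Their sum was highest in Nod2-/- replicate 1, and their mean log2 value was highest in Nod2-/- replicate 3. Tac1 is itself the only one of 15 enteric neuron and glia genes with a name in the table. The part of these cells in the values of the 5 genes was not tested.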

How the data were processed

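Total RNA of 6 laser captures was hybridised to Affymetrix MoGene 1.0 ST arrays, with annotation release 31 and build mm9 per the file headers. The authors deposited an intensity per probe set, on a linear scale. RMA is named in the submitters' processing notes, and the program that ran it is not given in the sources used here. A second deposited table adds symbols and positions for 3.65% of probe sets, and its intensity columns equal the value table (relative tolerance 0.001). Per the file headers it also holds a ratio to the WT median, a log2 value minus the WT median, fold and log2 fold columns, a signed fold score and p-value columns of an unpaired test, and none of these was used. By those headers it was selected on a fold of at least 1.33, or of 1.25 with a p-value threshold.

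Intensities were taken to log2 and fitted with limma 3.58.1 in R 4.3.3 (lmFit, eBayes, genotype as the only term, no filter) over 28853 probe sets, with Benjamini-Hochberg adjustment and a threshold of 0.05. The fit was tested on simulated data. Groups came from the titles. The number in date form came from the column names. Correlations (Python 3.11.15, scipy 1.17.1) are given without the planned permutation test, since the genes were chosen on the same arrays. Symbols were updated by Entrez number through RefSeq (GRCm38.p6), in which 800 of 855 probe sets matched. Named are the 5 genes, every gene of the 4 enteroendocrine lists with a probe set of 1 symbol, and the 3 most alike genes per member. The members and lists were chosen with earlier results of these data known. Alternatives were another prior, the headers' unpaired test, centring, a filter on low values, date or replicate as a block, linear intensities and each array left out.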

Additional observations from a re-analysis of the deposited data

Results flagged for a closer look

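The difference between Nod2-/- and WT in Sst was not alike on the 2 dates, with opposite signs, and it was flagged for this. It was 1.86 (log2) on the date of replicate 1, with 1 array per genotype, and -2.19 on the date of replicates 2 and 3, with 2 per genotype, where both Nod2-/- arrays were below both WT arrays. In a limma fit with genotype, date and their interaction over 28853 probe sets, the difference between dates was 4.05 for Sst. With 1 array per genotype on the date of replicate 1, the residual spread in this fit comes only from replicates 2 and 3. Its tests therefore take no account of the spread on the date of replicate 1, and no standard error is given. The same term was 2.89 for Ghrl (adjusted p = 0.611), 1.71 for Tac1 (adjusted p = 0.808) and -0.05 for Chga (adjusted p = 1.00), and the adjusted p was 0.658 for Cck. In that fit 0 probe sets passed the adjusted threshold, and 2036 had an unadjusted p under 0.05. The date of replicate 1 holds a single array of each genotype, so date and single capture cannot be told apart there.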

How the results depend on the processing

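Chga, Tac1, Cck and Sst kept the sign of their difference under all 15 alternatives. The prior, the unpaired test, the filter and the date or replicate blocks cannot change this difference, so their share of the count was fixed in advance. Only centring, linear intensities and subsets of arrays could change it. The date of replicate 1 alone, where Sst had the opposite sign (1.86), was not among the alternatives. None of the 5 genes passed the adjusted threshold under the alternatives with a test, which are all but the linear intensities, where no test was run. Ghrl reversed under 2 alternatives, to -0.45 with replicates 2 and 3 only and to -0.62 without Nod2-/- replicate 1. With 1 array left out the log2 difference lay between 0.32 and 0.52 for Chga, 0.97 and 1.76 for Tac1, 0.30 and 0.92 for Cck, -0.62 and 1.12 for Ghrl, and -1.90 and -0.27 for Sst. The SD within genotype lay between 0.15 and 0.21 for Chga, 0.40 and 0.77 for Tac1, 0.26 and 0.54 for Cck, 0.51 and 1.66 for Ghrl, and 0.54 and 1.59 for Sst. The count of probe sets past the adjusted threshold was 3 with a trended and robust prior, 3 with probe sets below the median left out, and between 0 and 2 with 1 array left out (2 without Nod2-/- replicate 1), and it was 0 otherwise. The date as a random block was added after the data were seen and gave 0. With the replicate block, genotype differences were the same in size, 0 probe sets passed, and the lowest adjusted p was 0.969. The labels do not say whether replicate numbers pair the arrays. The correlation of deviations was 0.20, -0.02 and 0.06 for replicates 1, 2 and 3. Between arrays of different number it lay between -0.20 and 0.16. The value for replicate 1 was the highest, and those arrays also share the date, so these values cannot decide the pairing. The cause of the changes was not tested. Signal over background was not analysed, which limits low values such as Cck in WT replicate 1, Iapp and Etv1.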
